A study of Homo sapiens with 18 samples.

Results

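The transcripts described here are the messenger RNAs of the respiratory chain that are encoded in the mitochondrial genome. The members are the probe sets (small sets of probes that read the same RNA) whose gene symbol in the platform annotation holds COX1, COX2, COX3, ATP6, ND2, ND3, ND4, ND5, ND6 or CYTB, alone or with another gene. This gave 11 of the 54675 probe sets of the array, for 8 of the 10 genes. ND5 and CYTB had no probe set under these names. The annotation gives 10 of the 11 probe sets to 1 gene, and the other, 1553588_at, to ND3 together with the nuclear gene SH3KBP1. The group was taken to be picked from values of the comparison of 5 with 0 μM cocaine at 6 h, so those values are a description. COX3 had the largest decrease of the members in it and was the only member called. Counts of members called in that comparison are printed beside the number or share of all probe sets called, and nothing is read from them.

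The cells were SH-SY5Y, human neuroblastoma cells that become neuron-like when given retinoic acid. They were grown in 10 μM retinoic acid for 7 days and then without it for 24 h, and this holds for all groups. Cells were then exposed to cocaine at 0 μM (untreated), 1 μM or 5 μM for 30 min, the medium was replaced, and RNA was taken 6 h or 24 h later. Each of the 18 Affymetrix U133 Plus 2.0 arrays holds a pool of 3 dishes, with 3 arrays per dose and time. The 5 μM arrays are also labelled with words for an untreated control, and the stated dose was used. Since the replicates are pools of dishes of 1 cell line, p-values measure the spread between such pools. In bulk RNA, fewer cells of a type and less RNA per cell cannot be told apart.

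The mitochondrial genome encodes a small set of proteins, all of them subunits of the complexes that pass electrons to oxygen or make ATP. All other subunits of these complexes are encoded in the nucleus, made in the cytosol and imported. Both strands of the mitochondrial genome are transcribed as long precursors that are cut into single RNAs, and the factor TFAM packs the DNA and helps to start transcription. Neurons rely strongly on this chain for ATP. Nuclear chromosomes hold copies of pieces of the mitochondrial genome, and the probe sets were not checked against such copies. Probe sets whose names end in _s_at or _x_at can also bind related transcripts.

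Values are log2 signals made by the authors with RMA, separately for the arrays of each time, so levels at 6 h and 24 h are not set against each other. On such arrays a signal is not an amount of RNA, and different probe sets are not compared in amount. All 11 probe sets had a mean above log2(40) at both times. The brightest probe set of the array lay at 14.29 at 6 h, and 8 of the 11 members lay within 0.96 of it. Only 2 of the 54675 probe sets were brighter than 1553588_at of SH3KBP1 and ND3 at 6 h. For COX2 there were 5 and 6 brighter ones, for ND4 40 and 66, for 1553567_s_at of ATP6 65, for COX1 125 and for ND2 144. The remaining members were dimmer, with 7777 brighter probe sets for COX3, 8780 for ND6 and 17237 for 242131_at of ATP6.

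Of the cell markers, 12 of 13 neuroblastoma and noradrenergic neuron genes with a probe set lay above log2(40), and tyrosine hydroxylase (TH), which makes the precursor of dopamine, lay below it. Mesenchymal and Schwann cell genes were above it for 8 of 12, and blood cell genes for 1 of 4. Untreated arrays 2 and 3 of 6 h stood apart from array 1. CYP26A1, a retinoic acid hydroxylase whose gene responds to retinoic acid, was at 4.95 to 5.61 on the cocaine arrays of 6 h, and at 5.01, 10.69 and 10.99 on the 3 untreated arrays of that time. The median log2 difference of 9 retinoic acid response genes between 5 and 0 μM at 6 h was -0.79. In limma 0 of the 9 passed an adjusted p under 0.10, and 9 were lower at an unadjusted p under 0.05. The part of these arrays in the member values was not tested, and results at 6 h are also given without untreated arrays 2 and 3.

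At 6 h after 5 μM cocaine, 10 of the 11 probe sets had a lower mean than in untreated cells, and the median of the 11 log2 differences was -0.12. Over all 22455 probe sets tested, 54.6% had a lower mean and the median was -0.02. COX3 had the largest difference by far and ND6 was the only member with a higher mean. At an adjusted p under 0.10 (limma, Benjamini-Hochberg over all probe sets), 1 of the 11 was past the threshold, COX3, which was lower, against 1.42% of all probe sets called lower. For 7 of the 11, all 5 μM arrays lay below all untreated arrays, against 13.1% of all probe sets. These counts come from the comparison in view when the genes were picked and support nothing. With the replicate number as a block, 5 of the 11 were called lower (COX3, ND2, 224372_at of ND4 and both probe sets of ATP6), against 10.9% of all probe sets. COX3 was no longer called when the second or the third 5 μM array was left out. With these left out, 0 and 1 of all 22455 probe sets were called. Without untreated arrays 2 and 3, with only untreated array 1 left, 8 of the 11 were lower and the median was -0.08.

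**Figure D1:**
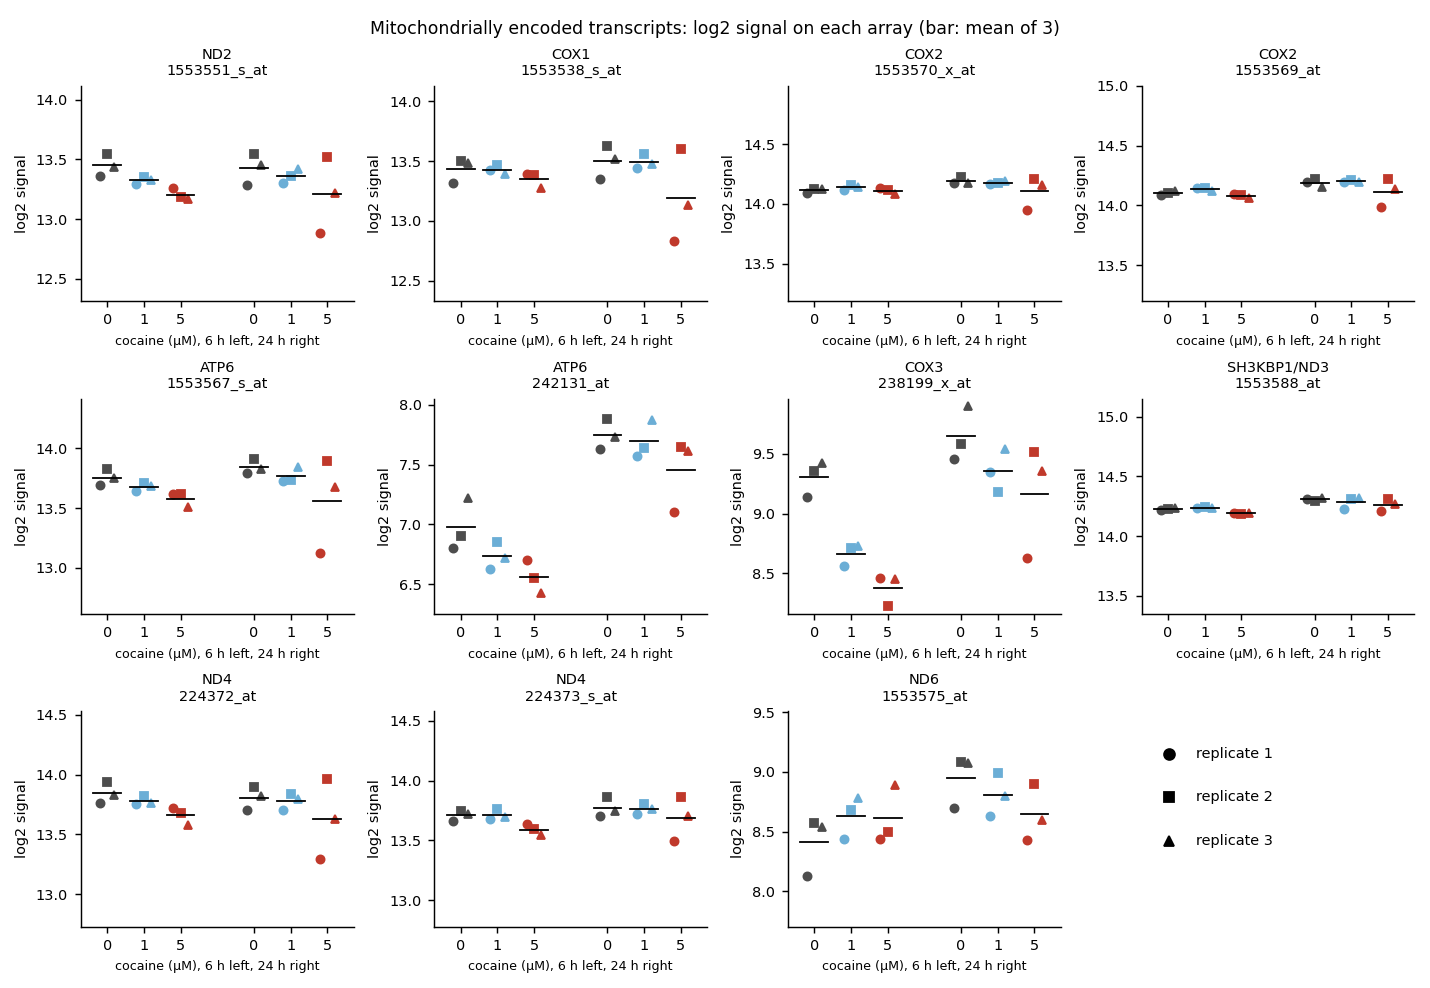
Log2 signal (vertical axis) of the 11 probe sets on each of the 18 arrays, by cocaine dose in μM (horizontal axis, 6 h left and 24 h right in each panel), with 1 point per array, the marker giving the replicate number and the bar the mean of 3 arrays. Each panel spans the same number of log2 units. COX3 stepped down from dose to dose at 6 h, and at 24 h the first 5 μM array was the lowest of the 9 in every panel.

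Complex I (NADH dehydrogenase) takes electrons from NADH, and ND2, ND3, ND4 and ND6 belong to its membrane arm, which pumps protons. ND2 at 6 h was at 13.36, 13.55 and 13.44 without cocaine, 13.29, 13.35 and 13.33 at 1 μM, and 13.26, 13.18 and 13.17 at 5 μM. The arrays of the 3 doses thus fell into 3 separate ranges, each dose below the one before it. The mean of ND2 was lower by 0.25 on the log2 scale at 5 μM than at 0 μM (standard error 0.061), and this difference was -0.16 without untreated arrays 2 and 3.

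ND4 has 2 probe sets, and they gave a like picture at 6 h. Its 224372_at was at 13.77, 13.94 and 13.83 without cocaine, 13.76, 13.82 and 13.77 at 1 μM, and 13.72, 13.68 and 13.58 at 5 μM. Its 224373_s_at was at 13.66, 13.74 and 13.72, then 13.68, 13.76 and 13.69, and then 13.63, 13.59 and 13.54 at the same doses. With both, the 5 μM arrays were all below the untreated ones, while the 1 μM arrays overlapped with the untreated ones. The differences of 5 minus 0 μM were -0.19 and -0.12.

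ND6 is the only protein gene on the other strand of the mitochondrial genome, the light strand. It was at 8.13, 8.58 and 8.54 without cocaine, 8.44, 8.68 and 8.78 at 1 μM, and 8.44, 8.50 and 8.89 at 5 μM. Untreated array 1 was low, and the other untreated arrays lay within the range of the cocaine arrays. The mean at 5 μM was 0.20 above that at 0 μM, with a standard error of 0.16. That difference was 0.05 without untreated array 1 and 0.48 against it alone. With the replicate number as a block, its standard error was 0.084 and its 95% interval 0.001 to 0.394 (adjusted p = 0.165 from limma).

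The probe set shared by ND3 and SH3KBP1, an adaptor protein of receptor uptake, lay near the top of the scale. At 6 h it lay between 14.18 and 14.20 on the 5 μM arrays and between 14.22 and 14.24 on the untreated arrays. SH3KBP1 has 3 probe sets of its own, with differences of 5 minus 0 μM at 6 h of 0.12 for 1554168_a_at, 0.03 for 223082_at and 0.19 for 235692_at. None of them passed in limma (adjusted p = 0.288, 0.823 and 0.467), and the arrays of both doses overlapped for the last 2.

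Complex IV (cytochrome c oxidase) passes electrons to oxygen. Its catalytic subunits are COX1, which holds the site where oxygen is reduced, and COX2, which receives electrons from cytochrome c, and COX3 is the third mitochondrially encoded subunit of its core. COX3 at 6 h was at 9.14, 9.35 and 9.42 without cocaine, 8.56, 8.71 and 8.72 at 1 μM, and 8.46, 8.22 and 8.46 at 5 μM. No array of a dose overlapped with those of another dose. The mean of COX3 was 8.38 ± 0.14 at 5 μM and 9.31 ± 0.15 at 0 μM (SD, n = 3 each), a difference of -0.92 on the log2 scale (standard error 0.0967), or of -47.3% in linear signal.

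The difference of COX3 between 1 and 0 μM was -0.64 and that between 5 and 1 μM was -0.28. Of the 11 members, COX3 and ND2 stepped down at both doses without overlap, as did 0.637% of all probe sets tested. Against untreated array 1 alone, COX3 was still lower by 0.76 at 5 μM. Only 1 probe set measured COX3, its name ends in _x_at, and no second one was at hand to set beside it.

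COX1 at 6 h was at 13.32, 13.50 and 13.49 without cocaine, 13.43, 13.46 and 13.40 at 1 μM, and 13.39, 13.39 and 13.27 at 5 μM. Untreated array 1 lay below most cocaine arrays, so the doses overlapped. The difference of 5 minus 0 μM was -0.08, and 0.04 with untreated array 1 alone. Within complex IV, COX2 varied least, with 1553569_at between 14.06 and 14.15 and 1553570_x_at between 14.08 and 14.16 on all 9 arrays of 6 h. The differences of 5 minus 0 μM were -0.02 and -0.00, at signals within 0.18 of the top of the scale.

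ATP synthase makes ATP from the proton gradient, and ATP6 is the subunit that carries the protons through the membrane. Its brighter probe set, 1553567_s_at, was at 13.69, 13.83 and 13.75 without cocaine, 13.64, 13.71 and 13.68 at 1 μM, and 13.61, 13.61 and 13.51 at 5 μM at 6 h. Its dimmer one, 242131_at, was at 6.80, 6.91 and 7.22, then 6.62, 6.85 and 6.72, and then 6.70, 6.55 and 6.43 at those doses. With both, the 5 μM arrays lay below the untreated ones. The differences of 5 minus 0 μM were -0.18 (standard error 0.057) and -0.42 (standard error 0.119).

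**Figure D2:**
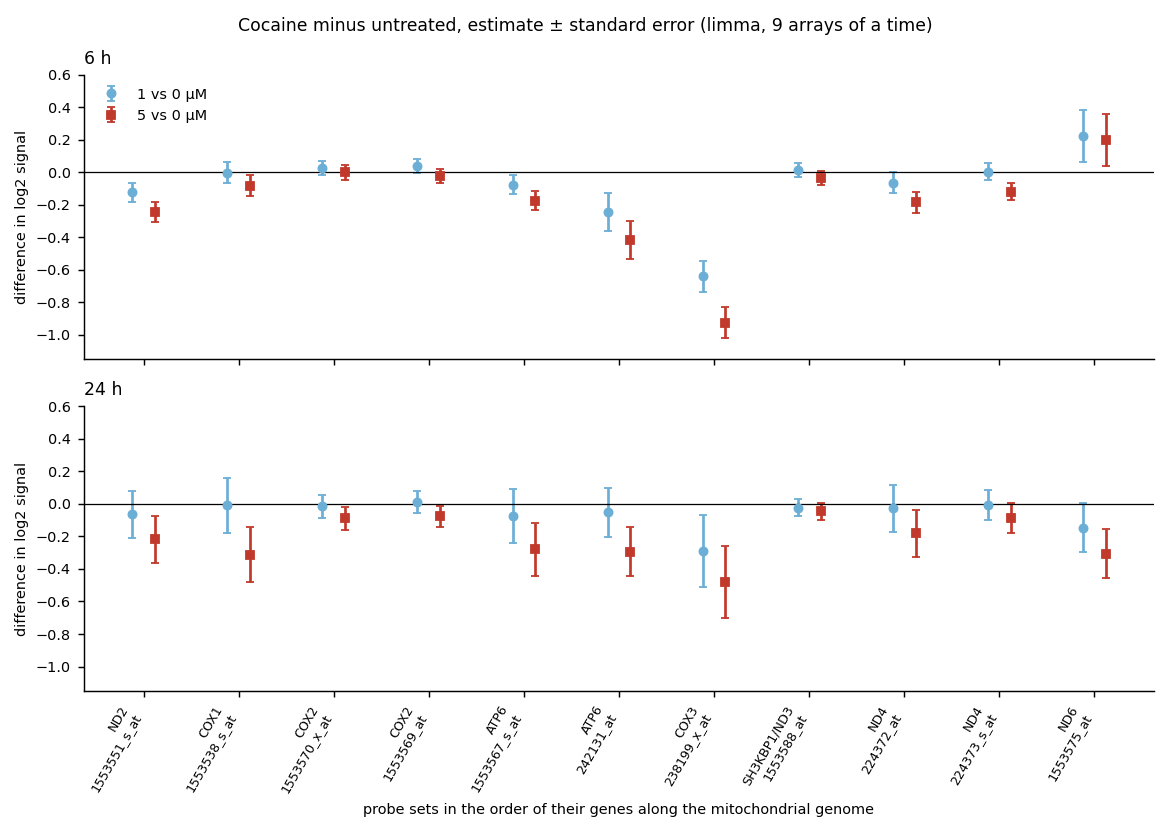
Difference in log2 signal against untreated cells (vertical axis) of each probe set at 1 μM (circles) and 5 μM (squares), at 6 h above and 24 h below, with the standard error from limma as bars and the probe sets ordered along the mitochondrial genome. At 6 h, COX3 is at -0.64 and -0.92 and ND6 lies above 0, and at 24 h all 5 μM points lie below 0 with wide bars.

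In the order of the genes on the mitochondrial genome, COX3 lies between ATP6 and ND3 of the same strand. At 6 h the differences of 5 minus 0 μM were thus -0.18 and -0.42 for the gene before it, -0.92 for COX3 and -0.04 for the probe set of the gene after it. Differences were smallest for the probe sets nearest the top of the scale, and no trend with brightness was tested. The 3 probe sets within 0.18 of the top of the scale had differences from -0.04 to -0.00, and the 5 others above 13 had differences from -0.25 to -0.08. The 3 dim ones were at -0.92, -0.42 and 0.20. When the arrays were set to 1 common distribution, the shared ND3 probe set kept the same rank on all arrays and had a difference of exactly 0. The part of the upper end of the scale in these differences was not tested.

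**Figure D3:**
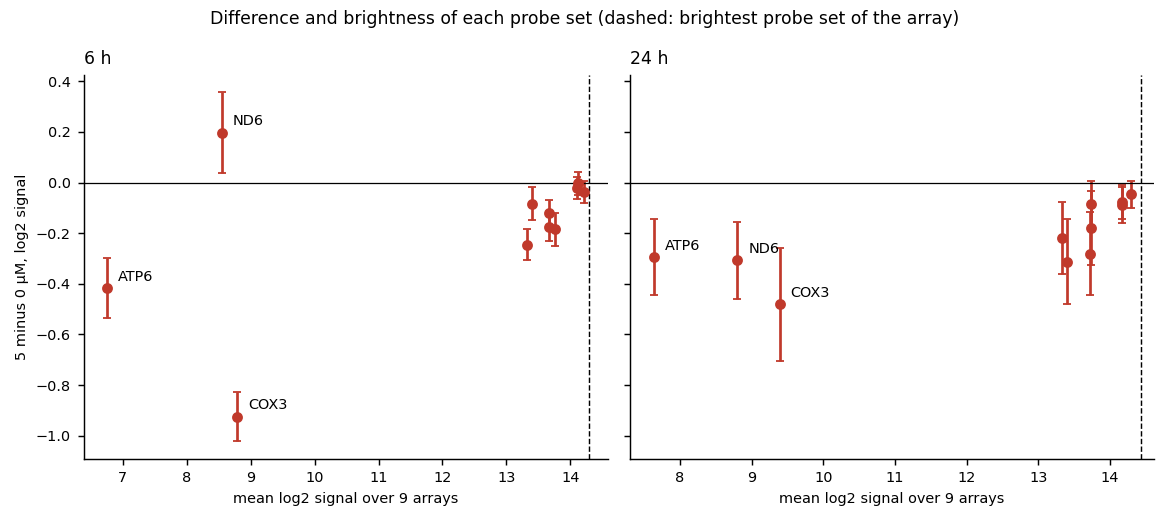
Difference of 5 minus 0 μM in log2 signal (vertical axis) against the mean log2 signal over the 9 arrays of the time (horizontal axis) for the 11 probe sets, at 6 h on the left and 24 h on the right. Bars are standard errors from limma and the dashed line marks the brightest probe set of the array, at 14.29 and 14.44, near which the differences are close to 0.

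At 1 μM and 6 h, the members as a whole did not lie to one side of the untreated cells. Of the 11 differences, 6 were below 0, as were 51.8% of all probe sets, and the median was -0.00, as against -0.01 over all probe sets. COX3 and ND2 lay below the untreated arrays without overlap, against 10.2% of all probe sets, and 1553569_at of COX2 lay above them, against 7.27%. In limma, 0 of the 11 members and 0 of all probe sets passed an adjusted p under 0.10, and 1 of the 11 (14.3% of all) had an unadjusted p under 0.05. With the replicate block, 1 of the 11, COX3, was called lower, against 7.44% of all. Set against 1 μM, the mean at 5 μM was lower for all 11 members, as for 53.9% of all probe sets, with a median of -0.10. The arrays did not overlap for 8 of them, against 7.28% of all probe sets. Most nuclear-encoded genes of the same complexes were also lower, each at its brightest probe set. These were 32 of 33 of complex I, 7 of 7 of complex III, 10 of 10 of complex IV and 15 of 17 of ATP synthase. Here too 0 members (0% of all) passed the threshold, and 2 of 11 (6.45% of all) had an unadjusted p under 0.05. These comparisons share arrays with that of 5 and 0 μM, so they do not stand as separate evidence.

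The nuclear-encoded subunits of the same complexes offered a comparison within each array. The mean log2 signal of 8 mitochondrial genes minus that of 67 nuclear genes, each at its brightest probe set, was taken on each array and read only for its change between arrays. At 6 h this distance was 1.235, 1.438 and 1.418 without cocaine, 1.123, 1.292 and 1.275 at 1 μM, and 1.198, 1.198 and 1.210 at 5 μM. All 5 μM arrays lay below all untreated ones, but untreated array 1 was much nearer to them than the other untreated arrays. The mean distance was lower by 0.161 at 5 μM than at 0 μM, and the nuclear genes alone differed by -0.0205. Between 1 and 0 μM the distance differed by -0.134, and between 5 and 1 μM by -0.0276. Much of the difference between 5 and 0 μM came from COX3. Without COX3 it was -0.0553, and the arrays overlapped, with 1.761, 1.789 and 1.773 at 5 μM and 1.710, 1.907 and 1.872 at 0 μM. The mean distance without COX3 was 1.776 at 1 μM and 1.774 at 5 μM.

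The spread between arrays of a dose was shared by the members. Untreated array 1 was the lowest of its dose for 11 of 11 members at 6 h. Over the 55 pairs of members, the deviations from the dose means correlated over the 9 arrays of 6 h with a median r of 0.59 (range -0.28 to 0.97), and over those of 24 h with a median r of 0.84 (range 0.57 to 0.99). These correlations are descriptive, since all points come from the same 9 arrays and some pairs are probe sets of 1 gene.

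Some of the array control values moved with the untreated arrays of 6 h as well. The difference between the 3′ and 5′ control probe sets of actin (ACTB), which grows when RNA is degraded or copied incompletely, was 0.548, 1.116 and 0.894 without cocaine, 0.724, 0.637 and 0.603 at 1 μM, and 0.493, 0.518 and 0.539 at 5 μM. The same value of GAPDH was 0.255, 0.215 and 0.226 without cocaine, 0.154, 0.170 and 0.172 at 1 μM, and 0.197, 0.242 and 0.190 at 5 μM. The spiked-in hybridization control bioD was at -1.64 to -1.50 relative to the control cre on the cocaine arrays of 6 h, and at -1.11 to -1.02 on the untreated arrays. The control bioB overlapped, at -5.40 to -5.20 at 5 μM and -5.38 to -5.23 without cocaine, and so did bioC. The part of these differences in the mitochondrial values was not tested. On untreated array 1, where the ACTB value and CYP26A1 were close to those of the cocaine arrays, but bioD was not, COX3 was above all 6 cocaine arrays, and COX1 was below 5 of the 6.

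**Figure D4:**
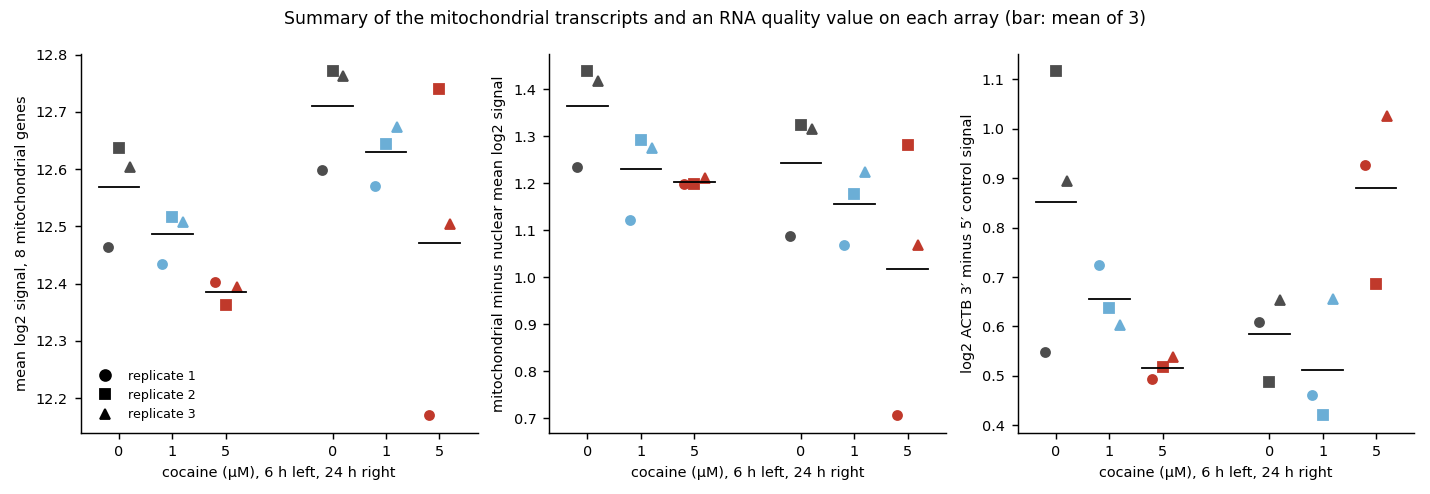
Mean log2 signal of the 8 mitochondrial genes (left), that mean minus the mean of 67 nuclear genes of the same complexes (middle) and the log2 difference of the 3′ and 5′ control probe sets of ACTB (right), by cocaine dose in μM on the horizontal axis with 6 h left and 24 h right. Each point is 1 array and bars are means of 3. The first 5 μM array of 24 h is lowest in the left and middle panels, at 0.707 in the middle one, and untreated arrays 2 and 3 of 6 h have the highest ACTB values of that time.

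The arrays of 24 h were taken as not used to pick the genes, though earlier results of these data were known. The comparison of doses was tested there. All 11 members had a lower mean at 5 μM than at 0 μM, where 50.1% of all 24307 probe sets did, and the median difference was -0.22 against -0.00 over all. In limma, 0 of the 11 passed an adjusted p under 0.10, against 0.0123% of all probe sets, and 0 of the 11 had an unadjusted p under 0.05, as against 7.2% of all. With the replicate number as a block, 0 of the 11 passed either, but 4 of the 11 had an unadjusted p under 0.05, against 15.5% of all (COX1, COX3, ND6 and 242131_at of ATP6). The smallest adjusted p of a member was then 0.159, for ND6. Without the block, the adjusted p-values of the members ran from 0.702 to 0.918. Arrays of both doses overlapped for every member, while 4.51% of all probe sets lay lower without overlap. Since the members vary together across arrays, their common direction is not 11 separate observations.

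COX3 had the largest difference at 24 h as well, but with a wide spread. It was at 9.46, 9.58 and 9.90 without cocaine, 9.35, 9.18 and 9.54 at 1 μM, and 8.63, 9.52 and 9.36 at 5 μM. The first 5 μM array was low and the second lay among the untreated arrays. The mean was 9.17 ± 0.48 at 5 μM and 9.65 ± 0.23 at 0 μM (SD, n = 3 each), a difference of -0.48 (95% interval -0.99 to 0.02, adjusted p = 0.702 from limma). This interval holds both 0 and the difference of COX3 at 6 h, and with the replicate block it was -0.88 to -0.08 (adjusted p = 0.26 from limma), which holds neither. The effects at the 2 times were not compared by a test.

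The other members of complex IV differed less at 24 h. COX1 was at 13.35, 13.63 and 13.52 without cocaine, 13.44, 13.56 and 13.48 at 1 μM, and 12.84, 13.60 and 13.13 at 5 μM. Its difference of 5 minus 0 μM was -0.31 (95% interval -0.69 to 0.07, adjusted p = 0.736 from limma). Both COX2 probe sets stayed near the top of the scale, with differences of -0.08 and -0.09. The intervals of COX2 reached from -0.25 to 0.07.

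In complex I at 24 h, ND6 was at 8.69, 9.09 and 9.08 without cocaine, 8.63, 8.99 and 8.80 at 1 μM, and 8.43, 8.90 and 8.60 at 5 μM. Its mean was lower at 5 μM than at 0 μM by 0.31 (95% interval of the difference -0.65 to 0.04, adjusted p = 0.713 from limma). ND2 was at 13.29, 13.54 and 13.45 without cocaine, 13.30, 13.36 and 13.42 at 1 μM, and 12.88, 13.52 and 13.22 at 5 μM. The separate ranges that ND2 had at 6 h were not seen here. The differences of 5 minus 0 μM were -0.22 for ND2, -0.18 and -0.09 for ND4 and -0.05 for the probe set shared by ND3 and SH3KBP1.

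For ATP synthase at 24 h, 242131_at of ATP6 was at 7.63, 7.88 and 7.73 without cocaine, 7.57, 7.64 and 7.88 at 1 μM, and 7.10, 7.65 and 7.61 at 5 μM. Its brighter probe set 1553567_s_at was at 13.79, 13.91 and 13.83, then 13.73, 13.74 and 13.84, and then 13.12, 13.89 and 13.67 at those doses. Only the first 5 μM array stood well below the rest with both. The differences of 5 minus 0 μM were -0.29 and -0.28, with adjusted p-values of 0.719 and 0.764 from limma. With the replicate block the 95% intervals were -0.53 to -0.06 and -0.60 to 0.03 (adjusted p = 0.249 and 0.369 from limma).

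A single array carried much of the lower means at 24 h. The first 5 μM array was the lowest of all 9 arrays for 11 of 11 members, and it was the lowest for 16.7% of all probe sets tested at 24 h. The second 5 μM array was the highest of its dose for 11 of 11. Without the first, the median difference of 5 minus 0 μM was -0.06, COX3 was at -0.21 and 10 of the 11 stayed below 0. Without the second, the median was -0.38 and COX3 was at -0.66.

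An untreated array of 24 h stood apart as well. CYP26A1 was at 4.92, 4.96 and 6.31 at 5 μM and at 5.40, 6.04 and 9.55 at 0 μM, so the third untreated array was high, and the 9 retinoic acid response genes had a median difference of -0.37. That array also had the highest COX3 value of 24 h. Without it, COX3 differed by -0.35 between 5 and 0 μM, the median of the members was -0.21, and all 11 stayed below 0 with 0 called in limma.

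The distance between the mitochondrial and nuclear genes at 24 h was 0.707, 1.281 and 1.069 at 5 μM and 1.088, 1.325 and 1.315 at 0 μM. The mean distance was lower by 0.224 at 5 μM, by 0.0679 without the first 5 μM array and by 0.189 without COX3. The nuclear genes alone differed by -0.0153. The ACTB value was 0.926, 0.686 and 1.026 on the 5 μM arrays and 0.609, 0.488 and 0.654 on the untreated arrays, without overlap. That of GAPDH was 0.221, 0.175 and 0.221 against 0.187, 0.196 and 0.179, with overlap. The 5 μM array with the smallest ACTB value, the second, was the one of that dose with the highest mitochondrial signals. The one with the largest ACTB value was the third, while the first had the lowest mitochondrial signals. At 6 h, untreated arrays 2 and 3 had the highest ACTB values and also the highest means of the mitochondrial genes, 12.64 and 12.60. The part of the ACTB values in the result was not tested.

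At 1 μM and 24 h, the median difference from untreated cells was -0.03, against 0.02 over all probe sets, 10 of the 11 were below 0 (40.4% of all), and the differences ran from -0.29 for COX3 to 0.01 for 1553569_at of COX2. In limma, 0 members (0% of all probe sets) passed the threshold and 0 had an unadjusted p under 0.05 (3.37% of all), with an adjusted p of 1.00 for each. The 95% interval of COX3 ran from -0.80 to 0.22. Between 5 and 1 μM at 24 h, all 11 were lower (57.1% of all) with a median of -0.15. Here 0 passed the threshold, against 0.00823% of all, and 0 had an unadjusted p under 0.05, against 6.12% of all. With the replicate block 0 passed, and 3 of the 11 had an unadjusted p under 0.05, against 13.4% of all. Without the first 5 μM array that median was 0.00 and 4 of the 11 were lower.

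Nuclear genes that make, keep and use mitochondrial RNA were counted beside the members, by any probe set with 1 gene. Of all probe sets tested for 5 against 0 μM at 6 h, 1.57% were called higher and 1.42% lower (these shares are over probe sets and the lists count genes). Without untreated arrays 2 and 3 only untreated array 1 is left, so no calls are read from that fit and only differences are given. At 6 h after 5 μM cocaine, 1 of 32 genes of mitochondrial transcription and RNA processing rose and 0 fell, with a median difference of -0.04 over their brightest probe sets. The gene that rose was TFAM, by 203176_s_at, which was at 9.82, 9.82 and 9.90 at 5 μM and at 9.49, 9.34 and 9.28 without cocaine. The difference was 0.48, with an adjusted p of 0.0353 in limma and a standard error of 0.0644. The 2 other probe sets of TFAM did not pass, with differences of -0.05 and 0.21. At 24 h the same TFAM probe set was at 9.75, 9.87 and 9.80 at 5 μM and at 10.06, 9.95 and 9.97 without cocaine, a difference of -0.19 that did not pass (adjusted p = 0.581).

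Among 21 genes of mitochondrial DNA maintenance, 1 fell at 6 h. It was RRM2B, a ribonucleotide reductase subunit that supplies nucleotides for mitochondrial DNA outside of cell division, at 8.17, 8.31 and 8.11 at 5 μM and at 8.61, 8.60 and 8.43 without cocaine. Its difference was -0.35 (standard error 0.0774, adjusted p = 0.0826 from limma). Among 13 regulators of mitochondrial biogenesis, YY1, a transcription factor, rose by 1 dim probe set, 213494_s_at, at a difference of 0.50 (adjusted p = 0.0211), while its 5 other probe sets did not pass.

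Of 73 genes of the mitochondrial ribosome, which translates the member transcripts, 1 fell at 6 h. This was MRPS16, at a difference of -0.29 by 222499_at (adjusted p = 0.0924 from limma), while its other probe set was at 0.09. Of 17 mitochondrial proteins often used as a measure of mitochondrial mass, CS, the citrate synthase, fell by 0.24 (adjusted p = 0.0639). VDAC3, a channel of the outer membrane, rose by 0.37 by a dim probe set (adjusted p = 0.0432), and its 2 brighter probe sets, at -0.10 and -0.03, did not pass. By the probe sets called, TFAM, YY1 and VDAC3 were at 0.33, 0.27 and 0.23 for 1 minus 0 μM at 6 h. RRM2B, MRPS16 and CS were at -0.31, -0.25 and -0.27. For 5 minus 1 μM at 6 h these genes were at 0.15, 0.22, 0.14, -0.04, -0.04 and 0.03 in that order. For 5 minus 0 μM at 24 h they were at -0.19, -0.18, -0.36, 0.05, -0.02 and 0.18. None of these passed in limma. At 24 h CS was higher and TFAM lower at 5 μM without overlap of the arrays.

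The structural partners of the members did not pass at 6 h. In limma, 0 of 33 nuclear-encoded genes of complex I, 0 of 7 of complex III, 0 of 10 of complex IV, 0 of 17 of ATP synthase and 0 of 39 assembly factors passed in either direction. At an unadjusted p under 0.05, which 17.2% of all probe sets had, complex I had 3 genes higher and 2 lower, complex III 0 and 2, complex IV 1 and 3, ATP synthase 0 and 2, and the assembly factors 5 and 4. With the replicate block, genes of these lists did pass at 6 h, with 1 higher and 2 lower in complex I, 0 and 3 in complex III, 1 and 2 in complex IV, 1 and 2 in ATP synthase and 3 and 4 among assembly factors.

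The block also gave 4 genes higher and 5 lower in transcription and RNA processing, 1 and 5 in DNA maintenance, 3 and 2 among regulators of biogenesis, 3 and 7 in the mitochondrial ribosome and 2 and 7 among mass proteins, at 6 h. Over all probe sets the blocked fit called 18.6%, and the fit without the block 2.98%. At 24 h, no gene of any of these lists passed in limma, with or without the block. An unadjusted p under 0.05 was found for 7.2% of all probe sets in 5 against 0 μM at 24 h. By that measure at most 2 genes were higher and 3 lower in a list, both in the mitochondrial ribosome. Between 5 and 1 μM at 24 h the share was 6.12%. Lower there were 5 of 32 genes of transcription and RNA processing, 4 of 17 mass proteins, 3 of 13 regulators of biogenesis and 3 of 73 ribosome genes. The other lists had at most 2 lower, and no list had more than 1 higher. For the 6 genes called at 6 h, the differences without untreated arrays 2 and 3 kept their directions. They were 0.36 for TFAM, -0.42 for RRM2B, 0.50 for YY1, -0.37 for MRPS16, -0.20 for CS and 0.29 for VDAC3.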

How the data were processed

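Total RNA of RA-differentiated SH-SY5Y cells was hybridized to 18 arrays, 3 per dose and time. The log2 signals were deposited by the authors, who made them with RMA apart for the arrays of either time. Versions of RMA and affy are not given in the sources used here. Genes were named from the array's annotation (41097 probe sets with 1 symbol, 1801 with several and 11777 with none).

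Probe sets with a symbol and a mean above log2(40) over the 9 arrays of a time were kept, without the 62 control probe sets (22455 at 6 h, 24307 at 24 h). Doses were compared within a time with limma 3.58.1 in R 4.3.3 (lmFit, eBayes), and p-values were adjusted by Benjamini-Hochberg over every probe set kept. The threshold was an adjusted p under 0.10. The code was tested on simulated data, with plots by matplotlib 3.10.9 (Python 3.11.15). Precision is limited by the number of arrays.

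The members, lists and alternatives were chosen with earlier results of these data known. Every member probe set is named. From the other lists, up to 4 genes in each direction that pass for 5 against 0 μM at 6 h are named, with the 5 probe sets of each time most like the members. SH3KBP1, other probe sets of named genes and the arrays left out were chosen after their values were seen.

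Doses share replicate numbers in the labels. Deviations of arrays from their dose mean correlated at 0.377 to 0.768 (6 h) and 0.424 to 0.733 (24 h) where the number was the same, over 9 pairs per time. With different numbers they correlated at -0.632 to 0.0711 and -0.575 to 0.165, over 18 pairs per time. By this check the number pairs the arrays, so a fit with it as a block was an alternative. The other alternatives were signal filters, quantile normalization, median centring, which arrays enter the fit, an intensity trend, an adjusted p under 0.05 and leaving out arrays.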

Additional observations from a re-analysis of the deposited data

How the results depend on the processing

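For 5 against 0 μM at 6 h, 1 member was past the threshold, with 670 of all 22455 probe sets. There were 5 with the replicate block (4184 of all), 2 with a filter of log2(80) (535 of 17932) and 3 with an intensity trend (668 of all). Leaving out each array in turn gave 0 to 5 members. There were 5 without untreated array 1 (2432 of all), and 0 without the second or the third 5 μM array (0 and 1 of all). The cause was not tested. The median of the members, -0.121, was -0.0761 without untreated arrays 2 and 3, and -0.143 to -0.0963 when single arrays were left out. For 1 against 0 μM at 6 h, the count of 0 became 1 with the replicate block and 0 to 1 when single arrays were left out (1 without untreated array 1), and the median was then -0.0632 to 0.0118, against -0.00394 with all arrays. Member counts of the other comparisons were 0 under every alternative run, so the replicate block changed no other count of members past the threshold. It did change the counts at an unadjusted p under 0.05, which were 0 without it, to 4 for 5 against 0 μM and 3 for 5 against 1 μM at 24 h. Without COX3, chosen after seeing the data, the mitochondrial minus nuclear difference of 5 against 0 μM at 6 h, -0.161, was -0.0553. COX3 at 5 against 0 μM and 6 h ranged from -1.01 to -0.76 over the alternatives. Its adjusted p from limma was up to 0.108 when single arrays were left out. Leaving out 1 array at a time gave 0 to 2432 calls over all probe sets. It ended the call of MRPS16 in 8 of 9 cases, RRM2B and CS in 7, VDAC3 in 5, TFAM in 3 and YY1 in 2.

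At 24 h the median difference of 5 against 0 μM ran from -0.376 to -0.0566 when single arrays were left out, and that of 5 against 1 μM from -0.312 to 0.00471. Only 3 arrays per dose, signals near the top of the scale and 1 probe set for COX3 limit what these values can show.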

Other observations

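The probe sets most like the members were sought over the 9 arrays of each time, as the 5 with the highest Pearson r with the mean of the 8 mitochondrial genes. At 6 h, among 21424 probe sets with 1 gene, they were those of TATDN1 (r = 0.971), EPHB3, SREK1IP1, PFDN4 and ADPRM (the lowest, r = 0.970). At 24 h, among 23199, they were those of MTARC2 (r = 0.981), an enzyme of the outer mitochondrial membrane, RBSN, PTPRO, ZRANB2 and COX15 (r = 0.965), which makes the heme A that COX1 binds. No probe set was among the 5 at both times. With 9 arrays and this many probe sets, high values of r are to be found by search alone, and they are given as a description.

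The array annotation held no probe set for 5 other genes of the mitochondrial genome, ND1, ND4L, ATP8 and the ribosomal RNAs RNR1 and RNR2.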
